A study of Homo sapiens with 18 samples.

Results

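The comparison described here asks whether complete wood smoke changed the same genes, in the same direction and by the same amount, in the bronchial line BEAS-2B and in the alveolar line A549. For each gene, the log2 response of BEAS-2B cells (complete smoke over clean air) was compared with that of A549 cells, and the line difference is the BEAS-2B response minus the A549 response. It uses 12 of the 18 mRNA libraries of the study, 3 in each of 4 groups: BEAS-2B cells under complete smoke, BEAS-2B cells under clean air, A549 cells under complete smoke and A549 cells under clean air. The other 6 libraries, of both lines under filtered smoke, were not compared. They entered the fit through the filter on low counts, the scaling and the shared estimate of spread. BEAS-2B is a line of immortalised bronchial epithelial cells and A549 a line from a lung adenocarcinoma, and both carry the genotype label wild type. Cells were plated 24 h ahead on porous inserts of 24 mm, 500000 BEAS-2B or 400000 A549 cells per insert, and met the aerosol or clean air directly, without medium on top, for 4 h (flow 100 mL/min, humidity 85%). The lines were grown in different media before exposure, BEAS-2B in a keratinocyte medium and A549 in RPMI 1640 with serum, so line, medium and plating density cannot be told apart. The labels do not state that the 3 inserts per group were separate cultures, so the p-values here rest on a spread among samples that may be purely technical.

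Wood smoke carries gases such as aldehydes together with particles that hold polycyclic aromatic hydrocarbons. Aldehydes and other electrophiles are sensed by KEAP1, which holds back the antioxidant factor NRF2, and damaged proteins release the heat shock factor HSF1. Aromatic hydrocarbons bind the aryl hydrocarbon receptor (AhR), which switches on cytochrome P450 genes such as CYP1A1 and CYP1B1. A549 cells are known to carry an inactivating change in KEAP1, so NRF2 is active in them without any exposure. Death receptors, the p38 kinase pathway and growth factors of the epidermal growth factor family take part in the choice between survival and death in epithelial cells.

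Gene counts summed to between 28.5 M and 55.0 M per BEAS-2B library and between 14.4 M and 21.4 M per A549 library. To see how far libraries followed their labels, each was placed on an axis on which 0 is the mean of the other clean-air libraries of its line and 1 the mean of the other complete-smoke libraries. BEAS-2B complete smoke 3 lay at 0.519, against 1.23 and 1.02 for the other complete-smoke libraries, and BEAS-2B clean air 1 lay at 0.453, against -0.125 and -0.209 for the other clean-air libraries. A549 complete smoke 3 lay at 0.544, against 1.01 and 1.07, and the A549 clean-air libraries lay between 0.0743 and 0.122. In BEAS-2B complete smoke 3, 31.9% of the reads mapped to several places and 12.6% lay outside genes. mRNAs of ribosomal proteins made up 14.7% to 18.6% of the counts in BEAS-2B cells under complete smoke and 5.48% to 10.7% under clean air, against 4.37% to 6.22% and 3.48% to 3.57% in A549 cells, and the scaling factors of BEAS-2B libraries were between 0.596 and 0.894 under complete smoke and between 1.02 and 1.25 under clean air. The part of these shares in the results was not tested. Because RNA of whole inserts was read, fewer cells of a kind and less RNA per cell cannot be told apart. Markers of bronchial basal cells summed to 858 to 2260 counts-per-million (CPM) in BEAS-2B cells under complete smoke and 538 to 1030 CPM under clean air, against at most 24.0 CPM in A549 cells. The BEAS-2B sums were mostly KRT17, at 737 to 2080 CPM and 407 to 871 CPM. KRT5, KRT14 and NGFR were also higher in BEAS-2B cells, but TP63 and KRT15 were higher in A549 cells. Under clean air TP63 had a mean of 15.3 CPM in A549 cells, against 9.22 CPM in BEAS-2B cells, and KRT15 of 6.19 CPM, against 4.37 CPM. Of 7 markers of alveolar type II cells, 3 were tested. The list summed to 34.2 to 49.0 CPM in A549 cells, mostly ABCA3, against 7.21 to 9.95 CPM in BEAS-2B cells. LAMP3 went the other way, with means of 1.32 CPM under complete smoke and 1.70 CPM under clean air in BEAS-2B cells. Its A549 means were 0.357 and 0.31 CPM. The surfactant genes SFTPA1 and SFTPA2 were at 0 in all 4 groups and SFTPB and SFTPC did not exceed 0.125 CPM in A549 cells, so the defining markers of that cell type were absent. Of 12 markers of other lung and blood cells, 6 were tested, and the list summed to 6.84 to 11.7 CPM in BEAS-2B cells under complete smoke and 25.3 to 41.3 CPM under clean air, against 16.1 to 36.7 CPM and 23.3 to 38.6 CPM in A549 cells. PDGFRB, a marker of mesenchymal cells, fell to 4.23 to 7.28 CPM in BEAS-2B cells under complete smoke, against 21.9 to 36.4 CPM under clean air. DCN, another such marker, overlapped there, with 1.16 to 3.53 CPM against 1.2 to 1.97 CPM. LUM, a further one, did not exceed 0.141 CPM in BEAS-2B cells. In A549 cells LUM had 1.33 to 1.67 CPM under complete smoke, against 0.724 to 1.13 CPM under clean air. FOXJ1, a factor of ciliated cells, rose to 1.19 to 1.55 CPM in A549 cells under complete smoke, against 0.155 to 0.584 CPM under clean air. MUC5AC, of the same list, alone passed the line difference (16.7% of the 6 tested, against 1.74% of all genes). CD3E was at 0 in all 4 groups, and the part of these markers in the results was not tested.

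The responses of the lines were positively correlated over genes, and more genes passed in BEAS-2B cells. Of 17703 genes tested, 8633 (48.8%) passed in BEAS-2B cells, 4187 that rose (23.7%) and 4446 that fell (25.1%), and 2574 (14.5%) passed in A549 cells, 1042 that rose (5.89%) and 1532 that fell (8.65%). Passing means a Benjamini-Hochberg adjusted p under 0.05 in edgeR's quasi-likelihood test. The median size of the log2 response was 0.80 in BEAS-2B cells and 0.52 in A549 cells. Across all 17703 genes the responses of the lines correlated with Pearson's r = 0.581 and Spearman's rho = 0.659, and across the 10138 protein-coding genes with a mean of at least 5 CPM with r = 0.755 and rho = 0.807, a description over genes, which are not independent replicates. With the sample number as a block, the A549 count was 3185 when the block was set in A549 cells alone and 7841 when it was set in both lines. Whether the sample numbers pair libraries is not known. The A549 count was 598 without A549 complete smoke 2, 886 without A549 complete smoke 1, 940, 914 and 1022 without A549 clean air 1, 2 and 3, and the lowest BEAS-2B count was 6044, without BEAS-2B clean air 3.

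The line difference itself passed for 308 genes, 1.74% of those tested. It was positive, with the BEAS-2B response above the A549 response, for 100 genes (0.565%) and negative for 208 (1.17%), and 244 of the 308 were protein-coding. In 210 of them only the BEAS-2B response passed: 146 fell in BEAS-2B cells and 64 rose. In 44 only the A549 response passed: 26 rose in A549 cells and 18 fell. Both responses passed in the same direction for 24 genes: 13 fell further in BEAS-2B cells, 7 rose further in BEAS-2B cells and 4 rose further in A549 cells. In the last 30 both responses passed in opposite directions. A response that passes in a single line is not by itself a difference; all 308 genes passed the test of the difference. With library size alone as the scale, which put the median line difference of all genes at -0.56, against -0.03 with TMM scaling, 1571 genes passed and 2.86% of them were higher in BEAS-2B cells, against 32.5% in the count above.

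**Figure D1:**
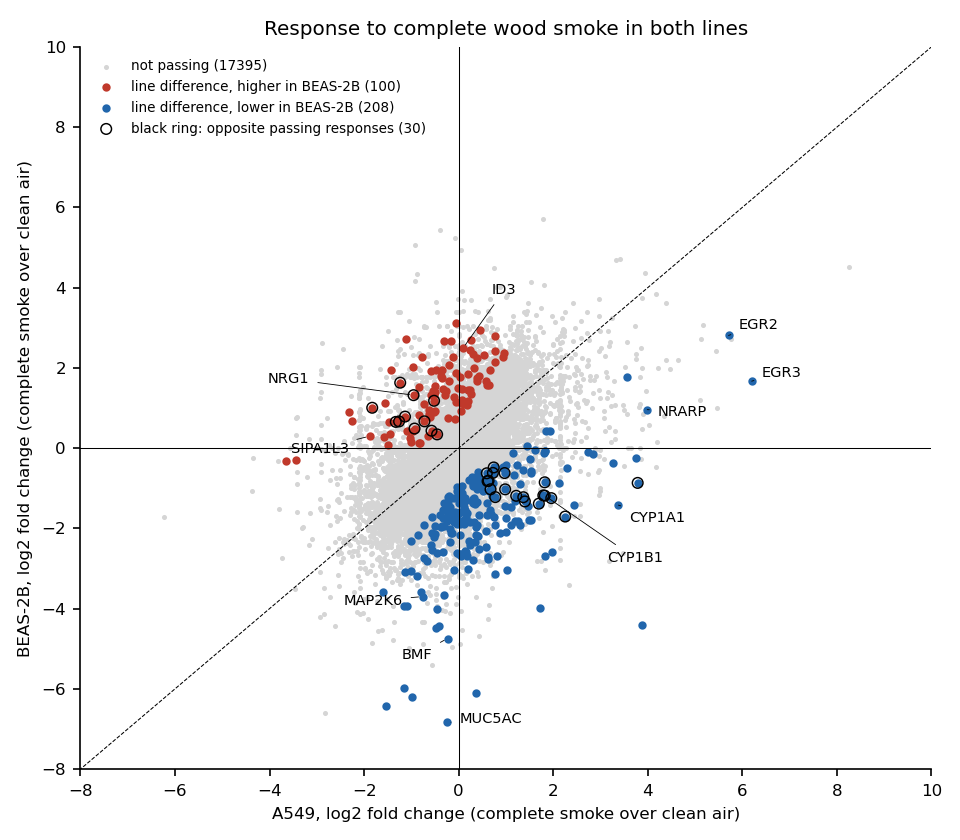
Log2 fold change (complete smoke over clean air) of every tested gene in BEAS-2B cells (vertical axis) and in A549 cells (horizontal axis), on the same scale, with equal responses on the dashed diagonal. Red points are the 100 genes with a passing positive line difference, blue points the 208 with a passing negative one, and black rings the 30 with opposite passing responses, which lie above 0 on one axis and below 0 on the other.

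All 308 genes kept the sign of their line difference when any of the 12 libraries was left out, but the number that passed did not hold. It was 564 without BEAS-2B complete smoke 3 and 797 without BEAS-2B clean air 1. Without BEAS-2B complete smoke 1 or 2 it was 96 or 175, and without BEAS-2B clean air 2 or 3 it was 144 or 134. It was 170, 186 and 97 without A549 complete smoke 1, 2 and 3, and 101, 87 and 114 without A549 clean air 1, 2 and 3. In a fit of only the 12 libraries compared it was 87, all of them among the 308, and CYP1A1, CYP1B1, WNT5B, SIPA1L3, NAV3, EGR2, BANP, PPP1R3E, SLC41A1, STC2, ALDH3A2, ORC1, VEGFA, KLF4, KIF4A, TRAF1, TNFAIP2 and SNAI2 of the genes described by name were not. Of the 308 genes, 59 passed in every one of the 12 fits, 16 higher and 43 lower in BEAS-2B cells, and 1 passed in none. Of the 37 passing genes described by name, 13 passed in all 12 of these fits, and they are marked below as robust to the left-out library.

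**Figure D2:**
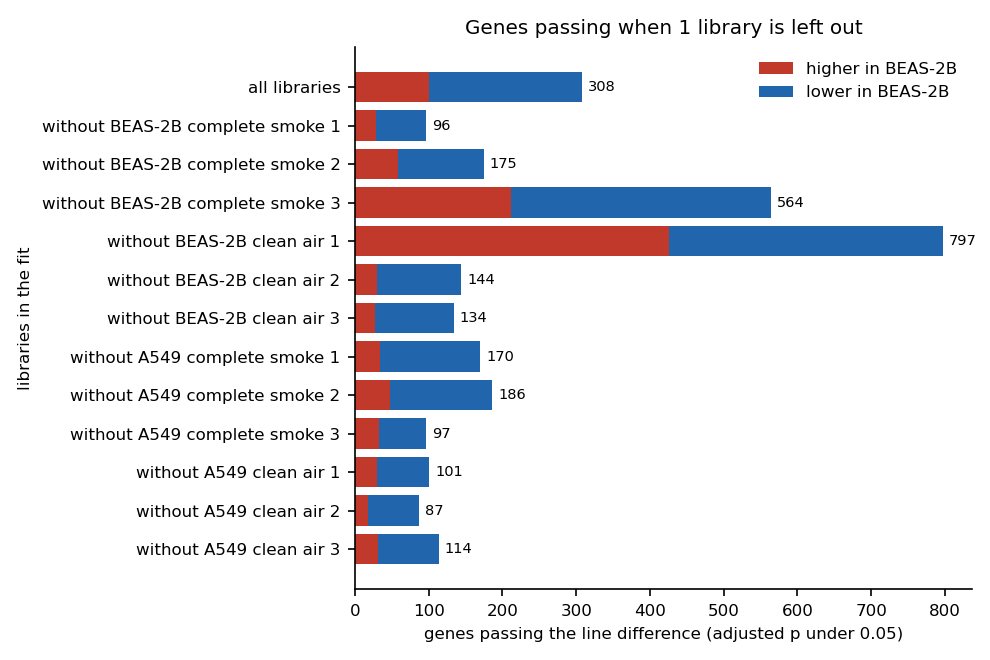
Number of genes that passed the line difference (horizontal axis, adjusted p under 0.05) with all libraries and with 1 library left out (rows), split into genes higher (red) and lower (blue) in BEAS-2B cells. The bars run from 87 without A549 clean air 2 to 797 without BEAS-2B clean air 1.

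Opposite responses were found for 30 genes, 11 that rose in BEAS-2B cells and fell in A549 cells and 19 that did the reverse. Blocking by sample number in A549 cells alone gave 48. It lay between 5, without A549 clean air 3, and 35, without BEAS-2B complete smoke 3, when 1 library was left out. To show the regions around the start sites of genes that moved in opposite directions, the promoters (250 bases before to 50 after the start, RefSeq, GRCh38.p14) of the first 3 genes in each direction with an entry in the table are printed. NRG1, CYP1B1, NUDT17 and PPP1R3E are not printed. Capitals mark matches, on either strand, to the motifs searched: TGACNNNGC (antioxidant response element), GAANNTTC (heat shock element), GCGTG (core of the AhR site), TGANTCA (AP-1 site) and TGACGTCA (cAMP response element). The first 3 genes rose in BEAS-2B cells and fell in A549 cells, and the last 3 did the reverse.
CYP20A1, chr2:203238768-203239067, + strand: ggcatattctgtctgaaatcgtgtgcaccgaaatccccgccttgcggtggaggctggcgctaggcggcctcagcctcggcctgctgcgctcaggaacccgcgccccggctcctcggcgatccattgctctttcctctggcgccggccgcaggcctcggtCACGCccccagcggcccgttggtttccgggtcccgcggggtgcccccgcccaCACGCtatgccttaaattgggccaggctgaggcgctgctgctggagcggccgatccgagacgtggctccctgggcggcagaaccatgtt
CFAP251, chr12:121918342-121918641, + strand: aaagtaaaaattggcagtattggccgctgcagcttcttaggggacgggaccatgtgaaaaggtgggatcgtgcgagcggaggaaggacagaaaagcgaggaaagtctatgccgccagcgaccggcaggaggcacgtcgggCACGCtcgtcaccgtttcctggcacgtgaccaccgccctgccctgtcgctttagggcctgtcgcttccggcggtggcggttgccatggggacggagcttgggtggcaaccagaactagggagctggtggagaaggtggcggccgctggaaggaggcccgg
CFLAR, chr2:201118466-201118765, + strand: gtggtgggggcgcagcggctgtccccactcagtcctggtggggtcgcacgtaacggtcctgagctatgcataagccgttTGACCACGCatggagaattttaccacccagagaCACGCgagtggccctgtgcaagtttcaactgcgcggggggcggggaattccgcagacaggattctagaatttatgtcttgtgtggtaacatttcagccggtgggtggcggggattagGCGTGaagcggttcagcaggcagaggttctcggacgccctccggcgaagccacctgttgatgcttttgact
IRX2, chr5:2751628-2751927, - strand: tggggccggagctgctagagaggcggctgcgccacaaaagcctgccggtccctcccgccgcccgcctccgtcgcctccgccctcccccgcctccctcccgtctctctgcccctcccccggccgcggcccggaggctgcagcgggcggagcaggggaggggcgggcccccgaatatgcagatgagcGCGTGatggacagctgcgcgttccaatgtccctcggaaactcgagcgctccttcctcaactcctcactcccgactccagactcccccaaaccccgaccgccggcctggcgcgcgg
CCNE1, chr19:29811741-29812040, + strand: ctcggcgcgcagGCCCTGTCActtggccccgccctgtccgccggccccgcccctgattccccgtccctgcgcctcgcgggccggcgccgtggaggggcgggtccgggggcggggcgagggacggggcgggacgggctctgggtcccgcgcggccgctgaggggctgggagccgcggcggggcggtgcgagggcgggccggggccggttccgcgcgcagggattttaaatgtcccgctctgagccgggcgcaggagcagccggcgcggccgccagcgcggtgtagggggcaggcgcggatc
SLC41A1, chr1:205813149-205813448, - strand: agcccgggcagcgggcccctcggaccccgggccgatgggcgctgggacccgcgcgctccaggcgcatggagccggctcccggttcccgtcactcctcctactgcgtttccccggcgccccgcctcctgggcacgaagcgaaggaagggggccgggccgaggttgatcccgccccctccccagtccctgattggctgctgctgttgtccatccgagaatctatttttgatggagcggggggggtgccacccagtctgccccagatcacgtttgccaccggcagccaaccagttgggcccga
The AhR core had 2 matches in the CYP20A1 promoter, 1 in that of CFAP251, 3 in that of CFLAR and 1 in that of IRX2. The antioxidant response element had 1 match in the CFLAR promoter, where it overlaps an AhR core, and 1 in that of CCNE1. None of the 5 motifs matched in the SLC41A1 window. The AhR core is common: it matched in 53.9% of the 76 promoters with an entry among genes higher in BEAS-2B cells and in 42.6% of the 129 among genes lower in BEAS-2B cells, against 49.3% of the 12180 of tested genes and 36.3% of all 27303 RefSeq promoters of this length. The antioxidant response element matched in 7.89% of the higher and 14% of the lower genes, against 15% of tested genes and 13.6% of all promoters. The AP-1 site matched in 10.5% of the higher and 5.43% of the lower genes, against 4.9% of tested genes and 7.76% of all promoters. The heat shock element matched in 9.21% of the higher and 5.43% of the lower genes, against 4.78% of tested genes and 6.87% of all promoters. The cAMP response element matched in 5.26% of the higher and 2.33% of the lower genes, against 3.14% of tested genes and 1.98% of all promoters. These shares are a description, with no test.

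NRG1, which codes for neuregulin, a ligand of ERBB receptors, had the smallest adjusted p of all genes. It had 6.93, 6.24 and 5.95 CPM in BEAS-2B cells under complete smoke, against 2.8, 2.63 and 2.23 CPM under clean air. In A549 cells NRG1 had 148, 142 and 138 CPM under complete smoke, against 268, 274 and 286 CPM under clean air. The groups did not overlap in either line, and the line difference was 2.27 ± 0.23 on the log2 scale (SE, adjusted p = 0.000388, robust to the left-out library). Groups that do not overlap are common: of all 17703 genes tested, 8004 had them in BEAS-2B cells and 8439 in A549 cells. Here and below their mention describes the libraries and is no further support. CFLAR codes for an inhibitor of caspase-8 at death receptors. It had 58.6, 46.3 and 46.4 CPM in BEAS-2B cells under complete smoke, against 19.6, 24.3 and 22.8 CPM under clean air. In A549 cells CFLAR had 57.5, 55.2 and 66.5 CPM under complete smoke, against 87.3, 89.8 and 79.7 CPM under clean air. It rose in BEAS-2B cells and fell in A549 cells, with no overlap and a line difference of 1.70 ± 0.22 (adjusted p = 0.0013, robust to the left-out library), which was 1.12 with library size alone (adjusted p = 0.0111).

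The same pattern was seen for CYP20A1, an orphan cytochrome P450, and CFAP251, a protein of ciliary axonemes. CYP20A1 had 17.7, 14.5 and 19.7 CPM in BEAS-2B cells under complete smoke, against 11.5, 10.8 and 10.4 CPM under clean air, and 8.93, 8.03 and 9.17 CPM in A549 cells under complete smoke, against 13.7, 14.5 and 15 CPM under clean air. CFAP251 had 42.8, 41.7 and 27.3 CPM in BEAS-2B cells under complete smoke, against 25.6, 24 and 21.4 CPM under clean air, and 1.67, 2.46 and 1.95 CPM in A549 cells under complete smoke, against 5.17, 5.84 and 4.33 CPM under clean air. Their line differences were 1.39 ± 0.24 (adjusted p = 0.0084) and 1.98 ± 0.31 (adjusted p = 0.00513), both robust to the left-out library. With library size alone CYP20A1 was at 0.87 and missed the threshold (adjusted p = 0.0804), as did GRAMD2B (0.86, adjusted p = 0.0693) and BANP (0.48, adjusted p = 0.278). CFAP251 shares its strand with PSMD9, whose span overlaps it, so some reads in the overlap may have been assigned to neither. GRAMD2B (line difference 1.42 ± 0.28, adjusted p = 0.0195) and BANP, a nuclear protein that binds DNA (1.01 ± 0.24, adjusted p = 0.0448), also rose in BEAS-2B cells and fell in A549 cells. GRAMD2B missed the threshold without BEAS-2B complete smoke 1 (adjusted p = 0.0535), A549 complete smoke 3 (0.062), A549 clean air 2 (0.0656) or A549 clean air 3 (0.0591). BANP passed without BEAS-2B complete smoke 3 or BEAS-2B clean air 1 and missed it in the other 10 fits, with an adjusted p of up to 0.15 without BEAS-2B clean air 2.

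In the reverse direction, IRX2, a homeobox transcription factor, had 45.6, 57.1 and 51.1 CPM in BEAS-2B cells under complete smoke, against 80.7, 99.5 and 97.3 CPM under clean air. In A549 cells IRX2 had 1.73, 2.75 and 2.76 CPM under complete smoke, against 0.362, 0.935 and 0.714 CPM under clean air. It fell in BEAS-2B cells, where it was high, and rose in A549 cells, where it was low, with a line difference of -2.67 ± 0.48 (adjusted p = 0.0117, robust to the left-out library). CCNE1 codes for cyclin E1, which drives entry into DNA synthesis. It had 8.03, 9.74 and 5.7 CPM in BEAS-2B cells under complete smoke, against 19.7, 13.1 and 15 CPM under clean air. In A549 cells CCNE1 had 43, 40.5 and 41.2 CPM under complete smoke, against 27.8, 27.5 and 22.7 CPM under clean air. The groups were apart in both lines, and the line difference was -1.70 ± 0.29 (adjusted p = 0.0084, robust to the left-out library). NUDT17, of the nudix hydrolase family, did the same (-2.0 ± 0.34, adjusted p = 0.0084, robust to the left-out library). PPP1R3E, a subunit that brings protein phosphatase 1 to glycogen, differed by -1.45 ± 0.29 (adjusted p = 0.0213), and missed the threshold without A549 complete smoke 3 (adjusted p = 0.062) or A549 clean air 1 (0.0608). SLC41A1, a magnesium transporter, differed by -1.34 ± 0.30 (adjusted p = 0.032). It passed without BEAS-2B complete smoke 2 or 3, BEAS-2B clean air 1 or A549 complete smoke 1, and missed the threshold in the other 8 fits, with an adjusted p of up to 0.0925 without A549 complete smoke 3.

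**Figure D3:**
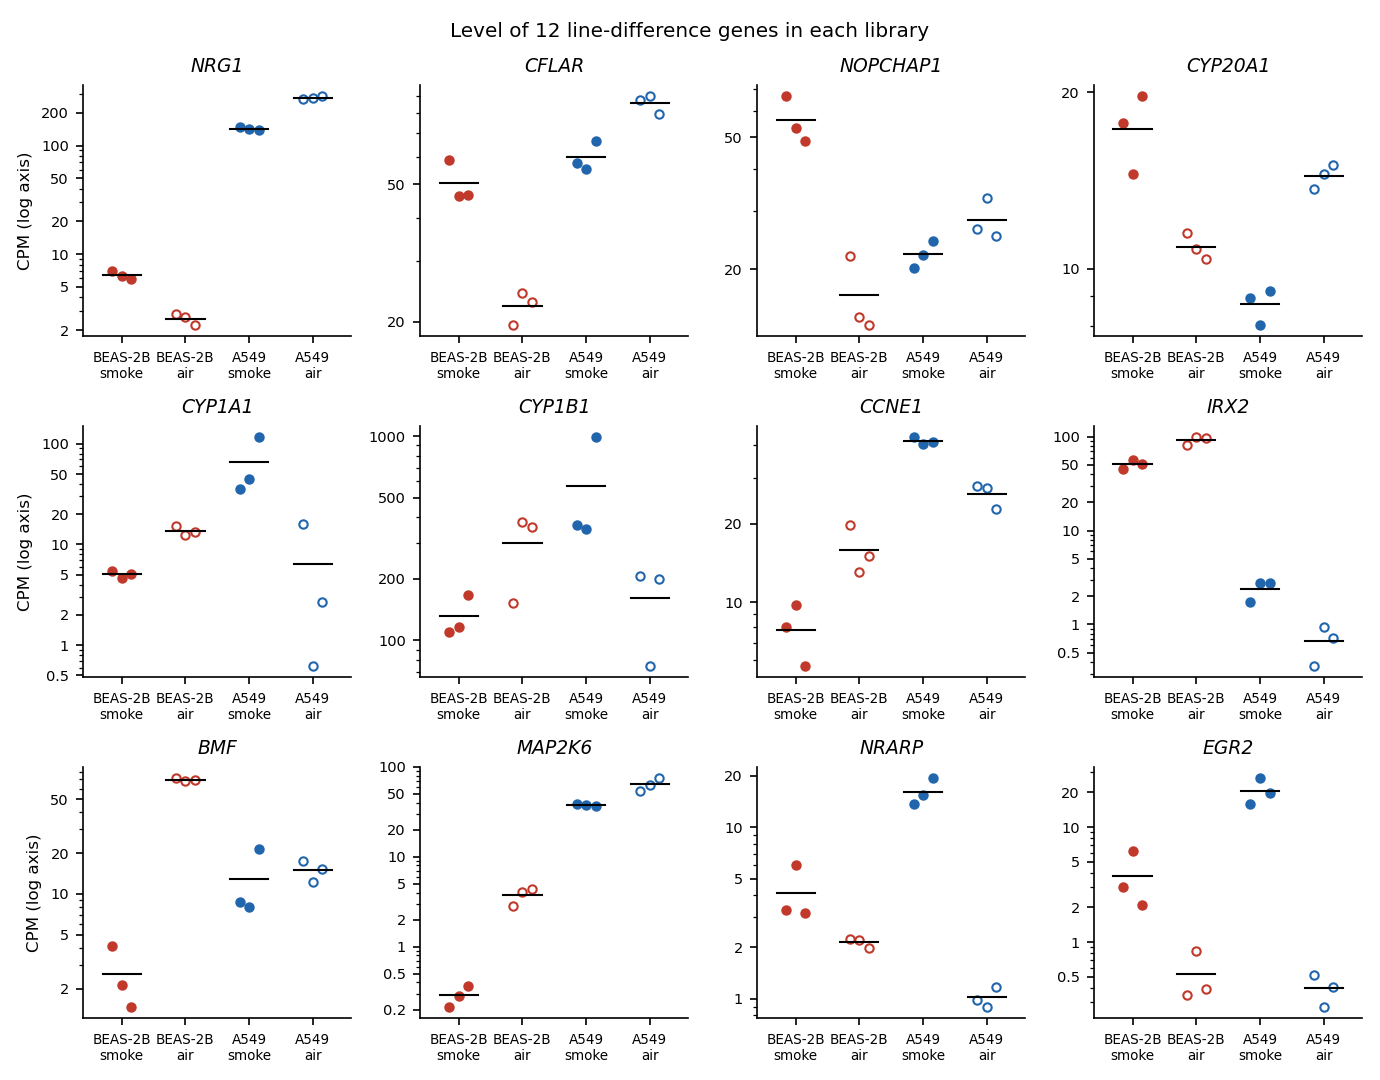
CPM (log axis) of 12 genes in each library of BEAS-2B cells (red) and A549 cells (blue), under complete smoke (filled) and clean air (open), with group means as bars (n = 3): NRG1, CFLAR and CYP20A1 lie higher under smoke in BEAS-2B cells and lower under smoke in A549 cells, while CCNE1 and IRX2 do the reverse, and CYP1A1 spans 0.623 to 15.8 CPM among the A549 clean-air libraries.

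Of the AhR targets, CYP1A1 and CYP1B1 passed the line difference. CYP1B1, a cytochrome P450 that oxidises aromatic hydrocarbons, had 110, 116 and 167 CPM in BEAS-2B cells under complete smoke, against 153, 381 and 360 CPM under clean air. In A549 cells CYP1B1 had 365, 349 and 990 CPM under complete smoke, against 207, 75 and 200 CPM under clean air. It fell by 1.18 on the log2 scale in BEAS-2B cells, where BEAS-2B complete smoke 3 overlapped BEAS-2B clean air 1, and rose by 1.82 in A549 cells with no overlap. CYP1A1, the P450 that most closely follows AhR activity, had 5.49, 4.64 and 5.07 CPM in BEAS-2B cells under complete smoke, against 15.1, 12.4 and 13.2 CPM under clean air. In A549 cells CYP1A1 had 35.2, 45 and 117 CPM under complete smoke, against 15.8, 0.623 and 2.7 CPM under clean air. It rose in A549 cells (log2 response 3.38, adjusted p = 0.00685), while its BEAS-2B groups did not overlap but missed the threshold (-1.42, adjusted p = 0.0877). The line differences were -4.80 ± 0.97 for CYP1A1 (adjusted p = 0.0217) and -3.01 ± 0.65 for CYP1B1 (adjusted p = 0.0267). CYP1B1 overlaps an antisense transcript on its own strand in the annotation, so some of its reads may have gone uncounted.

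Both calls depended on single libraries. CYP1A1 missed the threshold without BEAS-2B complete smoke 1 (adjusted p = 0.0546), BEAS-2B complete smoke 2 (0.0507), A549 complete smoke 3 (0.0634) or A549 clean air 3 (0.0591). CYP1B1 passed without BEAS-2B complete smoke 3, BEAS-2B clean air 1, A549 complete smoke 1 or A549 complete smoke 2, and missed it in the other 8 fits, with an adjusted p of up to 0.0767 without A549 complete smoke 3. In the fit of only the 12 libraries compared, both had an adjusted p of 0.0716. Of 11 AhR targets tested, CYP1A1 and CYP1B1 passed (18.2%, against 1.74% of all genes), both lower in BEAS-2B cells. The median line difference of the list was -0.55, against -0.03 over all genes. With library size alone these medians were -1.16 and -0.56. TIPARP, an AhR feedback gene, had a line difference of -1.04 ± 0.41 (adjusted p = 0.203), and AHR, the receptor, had -1.15 ± 0.40 (adjusted p = 0.157). Neither passed in the main fit of all libraries, and AHR was named after its values were seen. TIPARP passed with library size alone (-1.61, adjusted p = 0.0482), where 1571 genes passed. It also passed with the sample number as a block in both lines (-0.95, adjusted p = 0.0462), where 3541 genes passed.

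NOPCHAP1, ID3, PLK3, TRAF1 and WNT5B rose in BEAS-2B cells and did not pass in A549 cells. NOPCHAP1 codes for a chaperone in the assembly of small nucleolar ribonucleoproteins. It had 66.6, 53.5 and 48.7 CPM in BEAS-2B cells under complete smoke, against 22, 14.4 and 13.6 CPM under clean air. In A549 cells NOPCHAP1 had 20.2, 22.1 and 24.4 CPM under complete smoke, against 26.4, 32.9 and 25.2 CPM under clean air. The groups were apart in both lines, but the A549 response missed the threshold (adjusted p = 0.262). The line difference was 2.10 ± 0.31 (adjusted p = 0.00335), and it passed in all 12 left-out fits, although its adjusted p was 0.0731 once offsets for GC content and length were used.

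ID3, an inhibitor of helix-loop-helix transcription factors and a target of BMP signalling, had 227, 131 and 75.3 CPM in BEAS-2B cells under complete smoke, against 34.2, 22.2 and 20.9 CPM under clean air. In A549 cells ID3 had 35.3, 33.3 and 26 CPM under complete smoke, against 30.2, 29.2 and 29.3 CPM under clean air. The A549 groups overlapped around the same level, and the line difference was 2.39 ± 0.53 (adjusted p = 0.0296). PLK3, a stress kinase among the p53 targets, had 30, 33.5 and 23.4 CPM in BEAS-2B cells under complete smoke, against 7.84, 6 and 4.62 CPM under clean air. In A549 cells PLK3 had 31.3, 43.7 and 31.6 CPM under complete smoke, against 26.6, 32.4 and 22.9 CPM under clean air. PLK3 had a line difference of 1.86 ± 0.35 (adjusted p = 0.0157). TRAF1, an adaptor of tumour necrosis factor receptors, had 19, 16.7 and 8.19 CPM in BEAS-2B cells under complete smoke, against 3.78, 4.61 and 3.49 CPM under clean air. In A549 cells TRAF1 had 3.75, 4.95 and 4.66 CPM under complete smoke, against 4.55, 4.99 and 4.28 CPM under clean air. TRAF1 had a line difference of 1.93 ± 0.40 (adjusted p = 0.0236).

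WNT5B, a Wnt ligand, had 130, 70.2 and 60.3 CPM in BEAS-2B cells under complete smoke, against 36.5, 29.1 and 24.9 CPM under clean air. In A549 cells WNT5B had 0.953, 0.708 and 0.618 CPM under complete smoke, against 0.879, 1.83 and 1.27 CPM under clean air, and these groups overlapped. The line difference was 2.36 ± 0.53 (adjusted p = 0.0328). When 1 library was left out, PLK3 missed the threshold only without A549 clean air 2 (adjusted p = 0.0538). ID3 passed without BEAS-2B complete smoke 2, BEAS-2B complete smoke 3 or BEAS-2B clean air 1 and missed it in the other 9 fits (adjusted p up to 0.0874, without BEAS-2B clean air 3). WNT5B passed without BEAS-2B complete smoke 2 or 3, BEAS-2B clean air 1 or A549 clean air 1 and missed it in the other 8 (up to 0.129, without A549 clean air 2). TRAF1 passed without BEAS-2B complete smoke 3, BEAS-2B clean air 1 or 2 or A549 complete smoke 2 and missed it in the other 8 (up to 0.068, without BEAS-2B complete smoke 1).

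BMF, AMH and MUC5AC fell in BEAS-2B cells and did not pass in A549 cells, and MAP2K6 fell in both lines. BMF codes for a pro-apoptotic protein of the BH3-only class. It had 4.15, 2.14 and 1.47 CPM in BEAS-2B cells under complete smoke, against 71.8, 68.2 and 69.8 CPM under clean air. In A549 cells BMF had 8.75, 8.03 and 21.6 CPM under complete smoke, against 17.4, 12.2 and 15.4 CPM under clean air. The BEAS-2B groups were far apart and the A549 groups overlapped. The line difference was -4.51 ± 0.56 (adjusted p = 0.0013, robust to the left-out library). MAP2K6, a kinase that activates p38, had 0.214, 0.285 and 0.367 CPM in BEAS-2B cells under complete smoke, against 2.83, 4.05 and 4.42 CPM under clean air. In A549 cells MAP2K6 had 38.5, 37.5 and 37.1 CPM under complete smoke, against 54.2, 62.5 and 75.2 CPM under clean air. It fell in both lines, further in BEAS-2B cells, with a line difference of -2.94 ± 0.35 (adjusted p = 0.0013, robust to the left-out library).

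AMH, a ligand of the transforming growth factor beta family, had 1.86, 2.82 and 3.71 CPM in BEAS-2B cells under complete smoke, against 28.2, 13.4 and 16 CPM under clean air. In A549 cells AMH had 11.3, 6.2 and 11.7 CPM under complete smoke, against 7.76, 8.69 and 7.09 CPM under clean air. The BEAS-2B groups were apart and the A549 groups overlapped. The line difference was -3.09 ± 0.43 (adjusted p = 0.00303, robust to the left-out library). MUC5AC, a secreted mucin and a marker of goblet cells, had 0, 0.0357 and 0 CPM in BEAS-2B cells under complete smoke, against 1.42, 1.82 and 2.25 CPM under clean air. In A549 cells MUC5AC had 32.9, 12.4 and 22.2 CPM under complete smoke, against 36.5, 20.4 and 23.4 CPM under clean air. In BEAS-2B cells this was 1 count under complete smoke and 193 under clean air, a ratio of 0.00616 with a 95% exact interval of 0.000155 to 0.0347 that covers counting error only. The fitted line difference of -6.59 (adjusted p = 0.0013, robust to the left-out library) depends on how a count near 0 is treated and is no bound.

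Of 32 genes of aldehyde and carbonyl metabolism, 13 rose and 3 fell in BEAS-2B cells, against 4 and 0 in A549 cells. Among all genes tested, 23.7% rose and 25.1% fell in BEAS-2B cells, against 5.89% and 8.65% in A549 cells. ALDH3A2 alone of the list passed the line difference (3.12%, against 1.74% of all genes). The list median was 0.19, and -0.37 with library size alone. ORC1, of the origin recognition complex, had 43.3, 45.9 and 39 CPM in BEAS-2B cells under complete smoke, against 82.8, 85.7 and 79.4 CPM under clean air. In A549 cells ORC1 had 43.6, 36.9 and 27.5 CPM under complete smoke, against 34.2, 29.1 and 23.6 CPM under clean air. ORC1 had a line difference of -1.27 ± 0.27 (adjusted p = 0.0253). ALDH3A2, the fatty aldehyde dehydrogenase, had 33.2, 38.9 and 35.3 CPM in BEAS-2B cells under complete smoke, against 87.2, 77.9 and 85.3 CPM under clean air. In A549 cells ALDH3A2 had 201, 212 and 198 CPM under complete smoke, against 249, 241 and 224 CPM under clean air. The groups were apart in both lines, but only the BEAS-2B response passed (A549 adjusted p = 0.302), and the line difference was -1.0 ± 0.22 (adjusted p = 0.0273). KIF4A, a chromosome-bound kinesin (-1.04 ± 0.25, adjusted p = 0.0478), VEGFA, the endothelial growth factor (-1.09 ± 0.27, adjusted p = 0.0469), and TNFAIP2, induced by tumour necrosis factor (-1.42 ± 0.31, adjusted p = 0.0278), fell in BEAS-2B cells and did not pass in A549 cells.

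These smaller differences were sensitive to the libraries used. ORC1 missed the threshold without BEAS-2B complete smoke 1 (adjusted p = 0.0633), A549 complete smoke 1 (0.0702), A549 complete smoke 2 (0.055), A549 clean air 2 (0.0538) or A549 clean air 3 (0.0581). TNFAIP2 missed it without BEAS-2B clean air 2 (0.0506), A549 complete smoke 2 (0.0529) or 3 (0.0775), or any A549 clean-air library (0.0764, 0.0513 and 0.0555). ALDH3A2 passed without BEAS-2B complete smoke 2 or 3 or BEAS-2B clean air 1 or 2, and missed it in the other 8 fits (up to 0.08, without BEAS-2B complete smoke 1). VEGFA passed without BEAS-2B clean air 1 or A549 complete smoke 1, and KIF4A without BEAS-2B clean air 1 or A549 clean air 1, and both had an adjusted p of up to 0.127 in the other 10 fits, VEGFA without A549 complete smoke 3 and KIF4A without BEAS-2B complete smoke 1. With library size alone ALDH3A2 was at -1.53, VEGFA at -1.66 and KIF4A at -1.59.

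The immediate early genes EGR2, EGR3 and KLF4 had the higher response in A549 cells, while ID3, of the same list, had it in BEAS-2B cells. EGR2, a zinc finger factor induced within minutes to hours of many stimuli, had 2.99, 6.17 and 2.09 CPM in BEAS-2B cells under complete smoke, against 0.346, 0.831 and 0.394 CPM under clean air. In A549 cells EGR2 had 15.8, 26.7 and 19.7 CPM under complete smoke, against 0.517, 0.273 and 0.408 CPM under clean air. It rose in both lines, by 2.81 in BEAS-2B cells and 5.71 in A549 cells on the log2 scale, and the line difference was -2.90 ± 0.66 (adjusted p = 0.0358). EGR3, of the same family, had 0.763, 2.03 and 2.02 CPM in BEAS-2B cells under complete smoke, against 0.157, 0.858 and 0.451 CPM under clean air. In A549 cells EGR3 had 9.05, 14.5 and 18.9 CPM under complete smoke, against 0.207, 0.0779 and 0.306 CPM under clean air. The BEAS-2B groups overlapped, the A549 groups did not, and the line difference was -4.52 ± 0.91 (adjusted p = 0.0213). NRARP, a feedback gene of Notch signalling, had 3.27, 6.06 and 3.16 CPM in BEAS-2B cells under complete smoke, against 2.24, 2.2 and 1.97 CPM under clean air. In A549 cells NRARP had 13.6, 15.4 and 19.4 CPM under complete smoke, against 0.983, 0.896 and 1.17 CPM under clean air. The groups were apart in both lines and both rose. NRARP had a line difference of -3.03 ± 0.43 (adjusted p = 0.00303, robust to the left-out library).

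KLF4, an epithelial transcription factor, had 16.7, 21.7 and 15.5 CPM in BEAS-2B cells under complete smoke, against 10.7, 16.2 and 13.2 CPM under clean air. In A549 cells KLF4 had 48.9, 60.3 and 70.5 CPM under complete smoke, against 18.8, 16 and 14.9 CPM under clean air. It passed in A549 cells and not in BEAS-2B cells, with a line difference of -1.43 ± 0.29 (adjusted p = 0.022). SNAI2, the repressor Slug, had 14, 17.3 and 16.2 CPM in BEAS-2B cells under complete smoke, against 11.4, 19 and 18.6 CPM under clean air. In A549 cells SNAI2 had 6.07, 9.49 and 8.7 CPM under complete smoke, against 2.69, 2.96 and 2.24 CPM under clean air. SNAI2 had a line difference of -1.66 ± 0.33 (adjusted p = 0.02). TSPYL2, of the nucleosome assembly family (-2.99 ± 0.57, adjusted p = 0.0169), and STC2, a secreted glycoprotein among the ATF4 targets (-1.90 ± 0.45, adjusted p = 0.043), likewise rose in A549 cells and did not pass in BEAS-2B cells.

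Of these genes, TSPYL2 missed the threshold only without A549 clean air 2 (adjusted p = 0.0513), and SNAI2 without BEAS-2B complete smoke 1 (0.0548), A549 complete smoke 3 (0.054) or A549 clean air 1 (0.055). EGR3 missed it without BEAS-2B clean air 2 (0.0691), A549 complete smoke 3 (0.0526), A549 clean air 1 (0.0568) or A549 clean air 2 (0.0663). KLF4 missed it without BEAS-2B complete smoke 1 (0.0633), A549 complete smoke 3 (0.0647), A549 clean air 2 (0.0528) or A549 clean air 3 (0.0505). EGR2 passed without BEAS-2B complete smoke 2 or 3, BEAS-2B clean air 1 or 3 or A549 complete smoke 1, and missed it in the other 7 fits (up to 0.105, without BEAS-2B clean air 2). STC2 passed without BEAS-2B clean air 1 or A549 complete smoke 1 and missed it in the other 10 (up to 0.102, without A549 complete smoke 3).

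Genes that fell in A549 cells and did not pass in BEAS-2B cells were fewer. PTPRE, a receptor tyrosine phosphatase, had 13.7, 9.49 and 10.2 CPM in BEAS-2B cells under complete smoke, against 5.45, 8.58 and 7.35 CPM under clean air. In A549 cells PTPRE had 3.04, 2.79 and 4.94 CPM under complete smoke, against 9.1, 8.92 and 11.8 CPM under clean air. The groups were apart in both lines, in opposite directions, and the line difference was 2.11 ± 0.44 (adjusted p = 0.0252), but the BEAS-2B response missed the threshold (adjusted p = 0.091). SIPA1L3, related to GTPase activators of Rap proteins, had 9.92, 5.89 and 25.8 CPM in BEAS-2B cells under complete smoke, against 7.24, 13 and 13.5 CPM under clean air. In A549 cells SIPA1L3 had 38.4, 33.4 and 41.6 CPM under complete smoke, against 150, 146 and 121 CPM under clean air. SIPA1L3 had a line difference of 2.18 ± 0.54 (adjusted p = 0.0478), and the high BEAS-2B value came from complete smoke 3, the library with the most reads outside genes. Without that library the difference was 1.38 (adjusted p = 0.0533), and SIPA1L3 passed in 1 of the 12 left-out fits, that without BEAS-2B complete smoke 2, with an adjusted p of up to 0.121 without A549 clean air 2. With the block in A549 cells alone its adjusted p was 0.0614, and with library size alone 0.102.

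NAV3, a protein that binds microtubule ends, differed by 2.0 ± 0.45 (adjusted p = 0.032). It passed without BEAS-2B complete smoke 2 or 3, BEAS-2B clean air 1 or A549 complete smoke 3, and missed the threshold in the other 8 fits (up to 0.0981, without A549 clean air 2). PTPRE passed without BEAS-2B complete smoke 2 or 3, BEAS-2B clean air 1 or 2 or A549 complete smoke 3, and missed it in the other 7 (up to 0.0752, without A549 clean air 3). With library size alone NAV3 was at 1.5 (adjusted p = 0.097) and PTPRE at 1.51 (adjusted p = 0.0575).

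**Figure D4:**
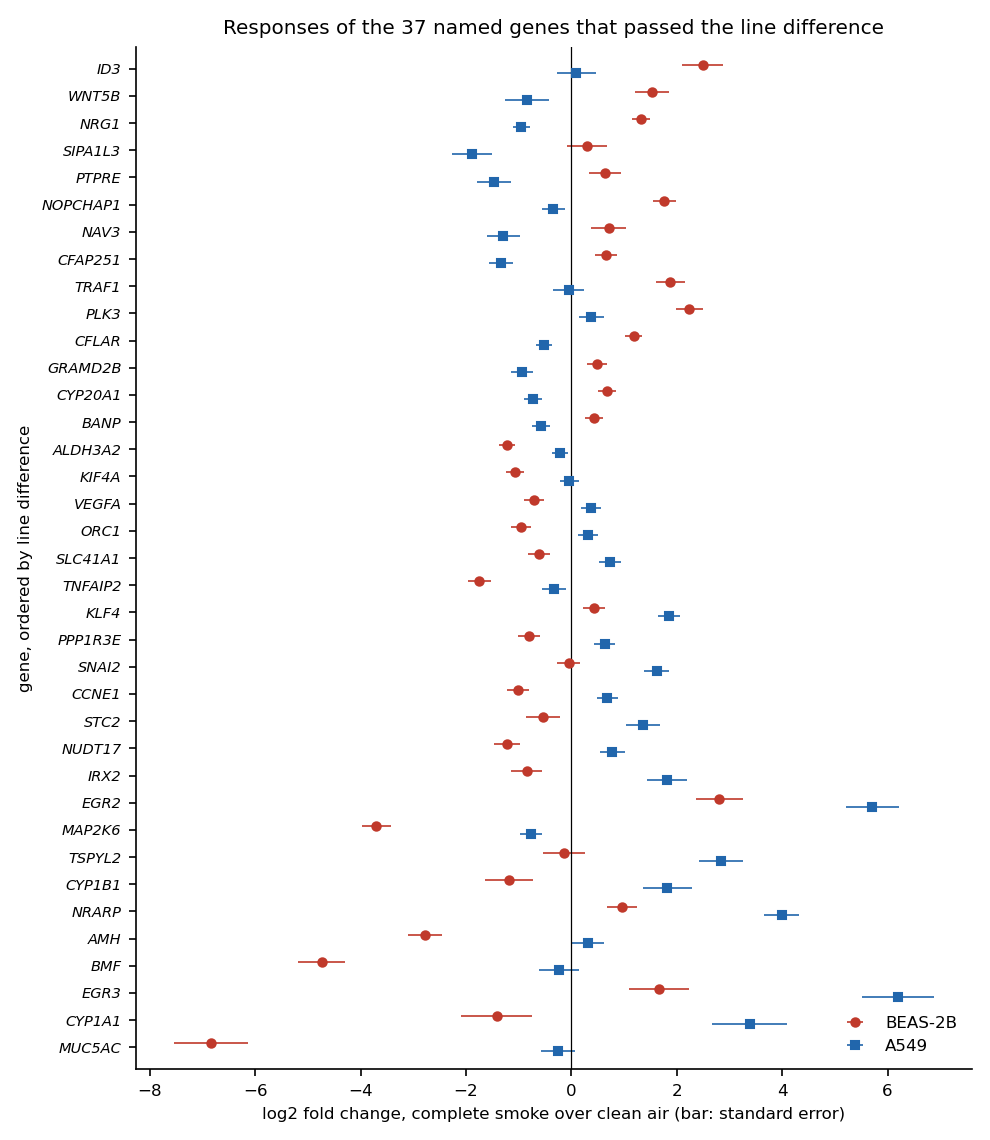
Log2 fold change (complete smoke over clean air) with its standard error in BEAS-2B cells (red circles) and A549 cells (blue squares) for the 37 named genes that passed the line difference, ordered from the highest difference (ID3, 2.39) to the lowest (MUC5AC, -6.59). For genes at the top the BEAS-2B point lies right of the A549 point, and for genes at the bottom left of it.

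With all libraries, none of 31 NRF2 targets tested passed the line difference in edgeR's quasi-likelihood test. Of all genes 1.74% did, a share too low for an absence in a list of this length to be read as a result. The median line difference of the 31 targets was 0.18. Within the lines, 11 NRF2 targets rose and 6 fell in BEAS-2B cells, against 0 that rose and 6 that fell in A549 cells. Over all genes 23.7% rose and 25.1% fell in BEAS-2B cells, against 5.89% and 8.65% in A549 cells. HMOX1, which codes for heme oxygenase, had 324, 864 and 248 CPM in BEAS-2B cells under complete smoke, against 818, 559 and 278 CPM under clean air. In A549 cells HMOX1 had 219, 295 and 439 CPM under complete smoke, against 1210, 1030 and 1250 CPM under clean air. It fell in A549 cells, while the BEAS-2B groups overlapped widely, and its line difference of 1.67 ± 0.65 did not pass (adjusted p = 0.202). Without BEAS-2B complete smoke 2 the HMOX1 difference was 0.93 (adjusted p = 0.449). Without BEAS-2B clean air 1 and BEAS-2B complete smoke 3 together it was 2.38 and passed (adjusted p = 0.0181). OSGIN1, another sentinel gene, was at 1.97 there and passed (adjusted p = 0.0267), against 1.32 with all libraries (adjusted p = 0.272). In that fit 3774 genes passed, against 308 with all libraries. GCLM, a subunit of the enzyme that starts glutathione synthesis, had 28.1, 56.5 and 55.2 CPM in BEAS-2B cells under complete smoke, against 54.3, 116 and 111 CPM under clean air. In A549 cells GCLM had 95.6, 106 and 122 CPM under complete smoke, against 205, 205 and 210 CPM under clean air. Its responses were -1.01 in BEAS-2B cells and -0.94 in A549 cells, with a line difference of -0.07 ± 0.46 (adjusted p = 0.97). TXNRD1 (thioredoxin reductase, -0.05 ± 0.43), SLC7A11 (the cystine carrier, -0.19 ± 0.82) and NQO1 (a quinone reductase, 0.14 ± 0.31) had adjusted p between 0.847 and 0.981. SRXN1 was under 0.5 CPM in every library compared and overlaps another gene on its strand, so its value is uncertain.

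None of 26 HSF1 targets passed with all libraries. Of all genes 1.74% did, too low a share for this absence to be read as a result. HSPA6, an inducible HSP70 gene, had 11.5, 101 and 21 CPM in BEAS-2B cells under complete smoke, against 11.9, 4.64 and 3.86 CPM under clean air. In A549 cells HSPA6 had 156, 245 and 213 CPM under complete smoke, against 4.29, 1.67 and 5.41 CPM under clean air. It rose in both lines, with overlapping groups in BEAS-2B cells, and the line difference of -3.05 ± 1.10 did not pass (adjusted p = 0.172). Without BEAS-2B complete smoke 2, its highest BEAS-2B library, the difference was -4.51 and passed (adjusted p = 0.0466). HSPA6 has a near-identical pseudogene copy and a same-strand overlap, so its counts are uncertain. DNAJB1, a co-chaperone, had a line difference of -0.19 ± 0.44 (adjusted p = 0.863). Among 31 ATF4 targets STC2 was the only gene that passed in the main fit (3.23%, against 1.74% of all genes). CHAC1, another sentinel gene, had a line difference of 2.12 ± 0.80 that did not pass (adjusted p = 0.189). It passed with the sample number as a block in both lines (1.99, adjusted p = 0.0198), where 3541 genes passed. Without BEAS-2B clean air 1 and BEAS-2B complete smoke 3 together it also passed (3.11, adjusted p = 0.00987), where 3774 genes did. PPP1R15A, the phosphatase subunit that ends the integrated stress response, had 250, 380 and 196 CPM in BEAS-2B cells under complete smoke, against 142, 123 and 90.5 CPM under clean air. In A549 cells PPP1R15A had 539, 864 and 945 CPM under complete smoke, against 132, 146 and 97.9 CPM under clean air. It rose in both lines, and the line difference of -1.43 ± 0.43 had an adjusted p of 0.102 in edgeR, 0.0334 in the DESeq2 Wald test and 0.0131 with library size alone. DDIT3, which codes for the factor CHOP, rose by 1.65 in both lines.

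Of 43 immediate early genes tested, 28 rose in BEAS-2B cells and 29 in A549 cells, where 23.7% and 5.89% of all genes rose. The line difference passed for 4 of them, against 1.74% of all genes: ID3 higher, and EGR2, EGR3 and KLF4 lower in BEAS-2B cells. FOS had a line difference of 1.36 ± 0.86 (adjusted p = 0.427) and EGR1 of -1.10 ± 0.82 (adjusted p = 0.501). Without BEAS-2B clean air 2 the difference of FOS was 3.02 and passed (adjusted p = 0.0344), and that of EGR1 was 0.40 (adjusted p = 0.794). FOSB had 8.33, 19.4 and 10.9 CPM in BEAS-2B cells under complete smoke, against 1.42, 19 and 1.58 CPM under clean air. In A549 cells FOSB had 169, 276 and 477 CPM under complete smoke, against 16.8, 11.3 and 17 CPM under clean air. BEAS-2B clean air 2 was as high as the smoke libraries, and the line difference of -3.55 ± 1.05 did not pass (adjusted p = 0.0956). It was -1.32 without BEAS-2B clean air 2 (adjusted p = 0.414) and -4.03 without BEAS-2B clean air 1, where it passed (adjusted p = 0.0347). Of 29 NF-kB targets and cytokines, 20 rose in BEAS-2B cells, where 23.7% of all genes did, and 6 in A549 cells, where 5.89% did. The median line difference of the list was 0.57 (0.01 with library size alone). Only TRAF1 (higher) and TNFAIP2 (lower) passed in the main fit (6.9%, against 1.74% of all genes). IL6 had 69, 31.6 and 27.6 CPM in BEAS-2B cells under complete smoke, against 5.54, 4.82 and 2.25 CPM under clean air. In A549 cells IL6 had 0.834, 2.08 and 3.71 CPM under complete smoke, against 0.724, 0.623 and 1.17 CPM under clean air. IL6 had a line difference of 1.92 ± 0.66 (adjusted p = 0.157), and that of CXCL8, the neutrophil chemokine, was 0.57 ± 0.54 (adjusted p = 0.607). IL6 passed without BEAS-2B clean air 1 and BEAS-2B complete smoke 3 together (2.39, adjusted p = 0.0245). It also passed with the sample number as a block in both lines (1.92, adjusted p = 0.0196).

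Of 32 p53 targets PLK3 passed in the main fit (3.12%, against 1.74% of all genes). MDM2 and CDKN1A, the textbook targets, had line differences of 0.74 ± 0.50 (adjusted p = 0.46) and 0.79 ± 0.36 (adjusted p = 0.269). CDKN1A passed without BEAS-2B clean air 1 and BEAS-2B complete smoke 3 together (1.15, adjusted p = 0.033). It also passed with the sample number as a block in both lines (0.84, adjusted p = 0.0127). Of 39 DNA replication genes CCNE1 and ORC1 passed (5.13%, against 1.74% of all genes), and the list's median line difference was -0.39. Of 32 mitosis genes 15 fell in BEAS-2B cells and 1 in A549 cells, where 25.1% and 8.65% of all genes fell. KIF4A alone of the mitosis genes passed the line difference (3.12%, against 1.74% of all genes), with a list median of -0.53. With library size alone these medians were -0.94 and -1.08, and that of the NRF2 targets was -0.38, so the positive sign of the last did not hold under that scale.

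Ribosomal protein mRNAs had the highest list median. None of 47 passed the line difference. Of all genes 1.74% did, too low a share for an absence in the lists of this paragraph to be read as a result. In BEAS-2B cells 46 rose, where 23.7% of all genes did, and in A549 cells 4 rose, where 5.89% did. The median line difference of the list was 1.07 with TMM scaling, 1.07 with DESeq2 size factors, 1.0 with upper-quartile scaling and 0.53 with library size alone. RPS23 had the smallest adjusted p among them (1.41 ± 0.40, adjusted p = 0.0871), and RPL22 had -0.23 ± 0.23, both named after their values were seen. These genes have near-identical processed copies, so some of their reads map to several places and were not counted. Tubulin and actin genes (0 of 24 passed, median 0.56), proteasome subunits (0 of 33, median 0.29) and cholesterol synthesis genes (0 of 26, median 0.15) had no passing member either, and with library size alone these medians were -0.01, -0.26 and -0.41. MT2A, a metallothionein that binds zinc and cadmium, had 2800, 2070 and 1520 CPM in BEAS-2B cells under complete smoke, against 1310, 545 and 513 CPM under clean air. In A549 cells MT2A had 154, 179 and 176 CPM under complete smoke, against 167, 189 and 190 CPM under clean air. It rose in BEAS-2B cells, and its line difference of 1.54 ± 0.45 had an adjusted p of 0.0955 in edgeR and 0.0298 in the DESeq2 Wald test. It passed without BEAS-2B complete smoke 3 (1.73, adjusted p = 0.0464) or BEAS-2B clean air 1 (2.11, adjusted p = 0.00965).

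**Figure D5:**
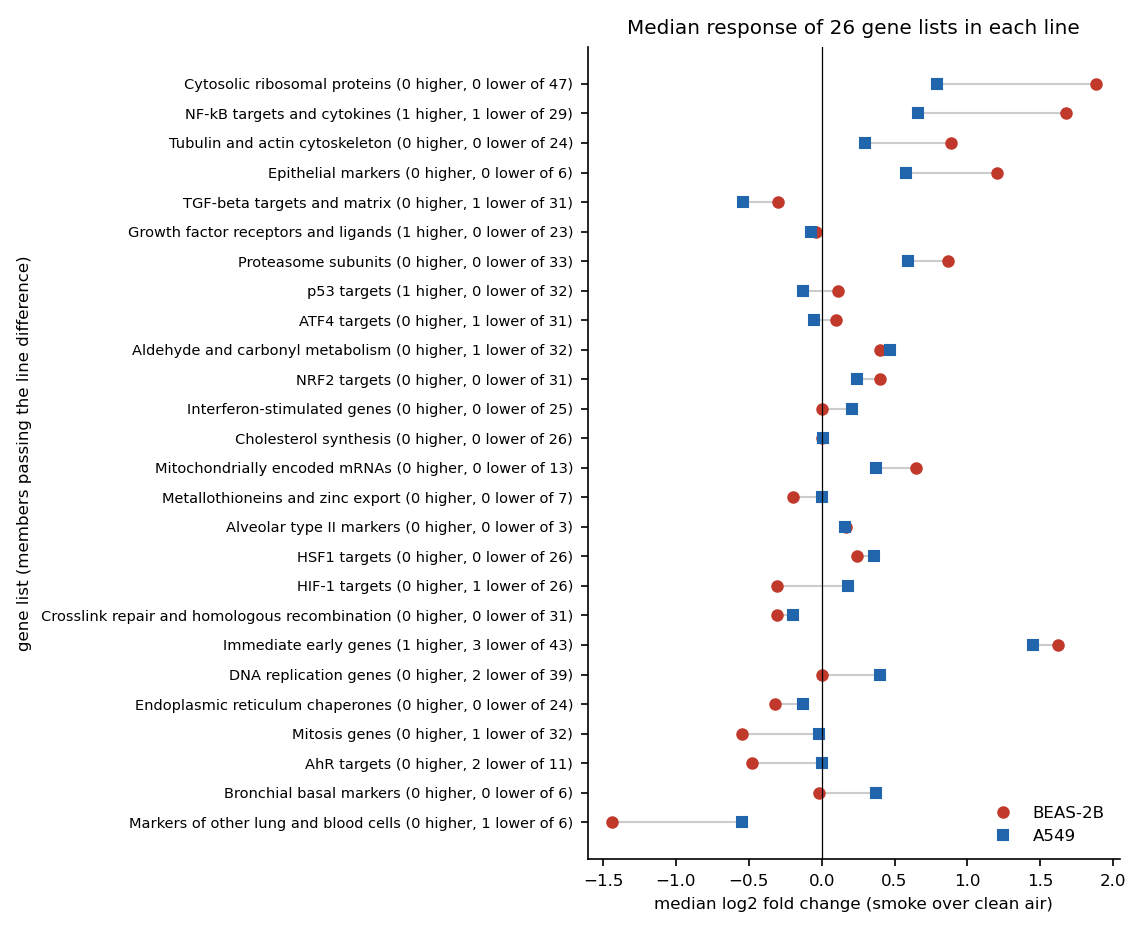
Median log2 fold change (complete smoke over clean air) of the tested members of 26 gene lists in BEAS-2B cells (red circles) and A549 cells (blue squares), ordered by the median line difference, with the number of members that passed the line difference in brackets. Cytosolic ribosomal proteins stand at the top (median line difference 1.07) with no passing member, and AhR targets stand near the bottom with 2 of 11. Of all genes 1.74% passed.

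The passing genes also differed in length, GC content and clean-air level, given here as a description. The 208 genes lower in BEAS-2B cells had a median span of 13.7 kb and a median exonic GC content of 55.1%, and the 100 higher genes had 38.4 kb and 48.2%, against 25.9 kb and 49.2% over all tested genes. Under clean air, the A549 level was above the BEAS-2B level for 70.0% of the higher genes and 36.1% of the lower genes, against 49.7% of all genes. So a gene was more often higher under clean air in the line in which it then had the lower response. The clean-air libraries enter both the level and the response, which couples them, and no test was made. With offsets for GC content and exonic length, 909 genes passed, 283 of the 308 among them, and all 300 of the 308 that had these annotations kept their sign.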

How the data were processed

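Poly(A) RNA of 18 inserts was sequenced. The authors deposited whole-number read counts per gene for each library, in 3 columns (strand ignored and either strand), with STAR 2.7.10b and the GRCh38 build, per the submitters' processing notes. Other upstream steps are not given in the sources used here. The third column was used, since counts on its strand exceeded those on the opposite one 11.7-fold to 17.1-fold. The 4 summary lines per file stayed out of library sizes. The files hold 62649 genes, and 17703 passed edgeR's filterByExpr.

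All 18 libraries (6 groups of 3) were fitted with edgeR 4.0.16 (R 4.3.3; TMM scaling, robust quasi-likelihood), and the line difference was tested as a contrast with Benjamini-Hochberg adjustment over all tested genes. Values per library are TMM-scaled counts-per-million (CPM). Gene positions, lengths and GC content came from GENCODE v29, which held 96.9% of the tested genes. The scripts were tested on simulated counts. No 2 libraries were identical. Alternatives used DESeq2 1.42.0, limma 3.58.1 and offsets fitted with mgcv 1.9.3. Intervals of ratios cover counting error only.

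Sample numbers were checked for pairing by correlating the deviations of same-numbered libraries from their group means. In A549 cells the correlations were 0.15, 0.162 and 0.288, and in BEAS-2B cells they were 0.618, -0.123 and 0.619. Differently numbered libraries were not compared in this way, so these values do not settle whether the numbers pair libraries in either line.

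Genes described by name are sentinels of the stress pathways, the 8 highest and 8 lowest line differences among protein-coding passing genes with a mean of at least 5 CPM overall and 1 CPM in each line, up to 6 opposite genes in each direction and, from each list, at most 4 members that passed. The comparison, the 26 gene lists and this rule were chosen with earlier results of these data known. A gene that this rule names is not reported here and was left out of the lists.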

Additional observations from a re-analysis of the deposited data

Results flagged for a closer look

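Of the genes described by name, 37 passed the test of the difference between the responses of BEAS-2B and A549 cells to complete smoke. All but CYP1A1 and CYP1B1, which are also sentinels, were named because they passed it, so their number is no support. When 1 library was left out, 13 of the 37 passed in all 12 fits. SIPA1L3 passed in 1 of these fits, and BANP, STC2, VEGFA and KIF4A passed in 2 each. Values are line differences on the log2 scale (BEAS-2B response minus A549 response). The BEAS-2B response was the higher for ID3 (2.39), WNT5B (2.36), NRG1 (2.27), SIPA1L3 (2.18), PTPRE (2.11), NOPCHAP1 (2.10), NAV3 (2.0), CFAP251 (1.98), TRAF1 (1.93), PLK3 (1.86), CFLAR (1.70), GRAMD2B (1.42), CYP20A1 (1.39) and BANP (1.01).

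It was the lower for MUC5AC (-6.59), CYP1A1 (-4.80), EGR3 (-4.52), BMF (-4.51), AMH (-3.09), NRARP (-3.03), CYP1B1 (-3.01), TSPYL2 (-2.99), MAP2K6 (-2.94), EGR2 (-2.90), IRX2 (-2.67), NUDT17 (-2.0), STC2 (-1.90), CCNE1 (-1.70), SNAI2 (-1.66), PPP1R3E (-1.45), KLF4 (-1.43), TNFAIP2 (-1.42), SLC41A1 (-1.34), ORC1 (-1.27), VEGFA (-1.09), KIF4A (-1.04) and ALDH3A2 (-1.0). The MUC5AC value rests on 1 count in BEAS-2B cells under complete smoke and is no bound.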

How the results depend on the processing

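All 308 genes kept the sign of their line difference in each of the 29 alternative settings in which they were tested, and the number that passed ranged widely. Line differences numbered 1571 with library size alone, 797 without a filter on low counts, 900 with the DESeq2 Wald test, 6339 with voom quality weights, 87 with only the 12 libraries compared and 909 with offsets for GC content and length. Without BEAS-2B clean air 1 and BEAS-2B complete smoke 3 together they numbered 3774. With the replicate block they numbered 3541, and 4440 with block and offsets. Leaving out 1 library gave 87 to 797. The A549 response counted 4086 genes with DESeq2, 9572 with quality weights, 7841 with the replicate block, 7002 with block and offsets, 1473 at 2-fold or more, 5431 without both BEAS-2B libraries named above, and 598 to 3647 with 1 library left out. Opposite responses numbered 52 with library size alone, 63 with DESeq2, 241 with quality weights, 10 with only the 12 libraries, 187 with the replicate block, 65 with offsets, 275 with block and offsets, 59 without both BEAS-2B libraries, and 5 to 35 with 1 library left out. In 2 settings chosen after seeing the data, line differences numbered 205 and A549 responses 4760 without complete smoke 3 of both lines, and opposite responses numbered 48 with the replicate block in A549 only. The causes were not tested. Of 1072 values of the 37 named passing genes, 861 stayed past the threshold and 211 did not. Of 694 values of the 24 others, 52 passed.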

Other observations

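Of the 308 genes, 36 passed the line difference in every setting run, and the 4 genes below come from 18 further protein-coding ones among them. They were chosen after their values were seen. CASP4, an inflammatory caspase that senses bacterial lipopolysaccharide, had 143, 118 and 99 CPM in BEAS-2B cells under complete smoke, against 40.6, 28.4 and 31 CPM under clean air. In A549 cells it had 12.6, 14.2 and 12.5 CPM under complete smoke, against 10.2, 11.7 and 12.2 CPM under clean air. PPARG, a nuclear receptor of lipid metabolism, had 11.4, 8.49 and 6.8 CPM in BEAS-2B cells under complete smoke, against 2.83, 2.89 and 2.59 CPM under clean air, while its A549 values were 26.5, 27.6 and 16.9 CPM under complete smoke, against 26.9, 28.4 and 26.6 CPM under clean air. FOXA1, a pioneer transcription factor of airway epithelium, had 7.87, 8.45 and 6.5 CPM in BEAS-2B cells under complete smoke, against 18.7, 22.2 and 22.3 CPM under clean air, and in A549 cells 16.5, 16 and 20.1 CPM under complete smoke, against 14.3, 17.9 and 16.6 CPM under clean air. CITED2, a co-regulator that limits hypoxia signalling, differed through A549 cells. It had 110, 109 and 95.3 CPM in BEAS-2B cells under complete smoke, against 114, 114 and 102 CPM under clean air, and in A549 cells 34.4, 64.3 and 45.7 CPM under complete smoke, against 9.52, 17.4 and 13.6 CPM under clean air.

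The filtered-smoke libraries were not among the groups compared, and their levels are given as values. In A549 cells under filtered smoke, CYP1A1 had 1.72, 3.25 and 2.46 CPM and CYP1B1 had 56.4, 63.5 and 97.6 CPM. EGR3 had 10.2, 20.9 and 26.9 CPM there, and NRARP had 14.7, 27.7 and 29.7 CPM. In BEAS-2B cells under filtered smoke, BMF had 4.49, 2.8 and 2.42 CPM and NRG1 had 6.78, 6.12 and 4.62 CPM.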
